A study of Mus musculus with 8 samples.

Results

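The genes described here are 10 genes of antigen presentation and costimulation, chosen by name from the 53342 genes in the deposited tables: the MHC class II chains H2-Aa, H2-Ab1 and H2-Eb1, the invariant chain Cd74, the peptide exchange subunits H2-DMa and H2-DMb1, the class II transactivator Ciita, and the costimulatory molecules Cd80, Cd86 and Cd40. Their 3' mRNA counts were read in 8 libraries of macrophages sorted from infarcted hearts. The donors were wild-type C57BL/6 mice, aged 8 weeks, whose hearts were taken 3 days after the infarction. The 4 groups of 2 libraries were Ly6Chi macrophages cultured for 24 hours with IL-21 at 100 ng/mL, Ly6Chi macrophages cultured without it, Ly6Clo macrophages with IL-21 and Ly6Clo macrophages without it. The labels do not say how many animals went into a library, so p-values measure the spread between libraries, which may be technical. Macrophages of IL-21 receptor deficient mice, which the series also names, are not analysed here.

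MHC class II molecules are pairs of an alpha and a beta chain that carry peptides from endosomes to the cell surface, where CD4+ T cells read them. Cd74 occupies the groove during assembly, and the H2-DM heterodimer exchanges its remnant for peptide. Ciita, a coactivator, is recruited to the X and Y boxes of class II promoters by the RFX and NF-Y factors, and interferon-gamma is its classical inducer. CD80 and CD86 bind CD28 and CTLA-4 on the T cell, CD40 binds CD40L, and IL-21 is a cytokine of activated T cells.

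The promoters of 3 class II genes are shown because the X and Y boxes are the shared control element of the family. RefSeq windows on GRCm38.p6 run from 250 bases before to 50 bases after the start of a gene. Those of 5 of the 10 genes were examined one by one. Cd74 was left out of these 5 by choice, and no window was held for H2-Ab1, Cd86, Cd40 or Ciita. The capitals mark CTNGNAAC, an X box-like word, followed on the gene's strand by TGATTGG, a Y box-like word with the ATTGG core that NF-Y reads. These letters and the allowed distance of 25 to 45 bases between their first bases were chosen after the windows had been seen.
H2-Aa promoter, chr17:34287774-34288073, minus strand: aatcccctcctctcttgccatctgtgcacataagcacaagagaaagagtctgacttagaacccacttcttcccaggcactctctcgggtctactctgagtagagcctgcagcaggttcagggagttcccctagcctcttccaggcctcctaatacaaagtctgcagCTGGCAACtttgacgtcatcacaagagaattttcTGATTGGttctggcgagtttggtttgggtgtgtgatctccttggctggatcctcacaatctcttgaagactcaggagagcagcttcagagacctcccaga
H2-Eb1 promoter, chr17:34305617-34305916, plus strand: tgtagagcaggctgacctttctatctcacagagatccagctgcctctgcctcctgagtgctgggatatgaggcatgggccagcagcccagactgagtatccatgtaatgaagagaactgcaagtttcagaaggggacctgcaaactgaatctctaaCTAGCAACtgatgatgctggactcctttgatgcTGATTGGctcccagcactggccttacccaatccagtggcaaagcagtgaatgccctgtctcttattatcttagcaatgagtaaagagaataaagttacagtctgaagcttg
H2-DMb1 promoter, chr17:34152941-34153240, plus strand: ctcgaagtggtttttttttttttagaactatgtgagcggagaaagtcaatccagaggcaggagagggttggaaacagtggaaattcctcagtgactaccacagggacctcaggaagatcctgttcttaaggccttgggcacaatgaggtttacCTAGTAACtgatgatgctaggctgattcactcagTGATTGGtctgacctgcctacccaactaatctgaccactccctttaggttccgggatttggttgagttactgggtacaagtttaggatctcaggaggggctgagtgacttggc

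The first bases of the words lay 34 bases apart in H2-Aa and H2-DMb1 and 33 bases apart in H2-Eb1. The X box-like word began 84, 94 and 97 bases before the start of H2-Aa, H2-Eb1 and H2-DMb1. Of 32851 promoter windows searched, 11 (0.0335%) held this arrangement, and 4 of the 11 belonged to class II genes, the fourth being H2-Ob. The arrangement was defined with the windows of H2-Aa, H2-Eb1 and H2-DMb1 seen. Their place among the 11 was therefore fixed beforehand. Alone and on either strand, CTNGNAAC was in 13.2% of windows and TGATTGG in 7.82%. The windows of Cd80 and H2-DMa did not hold these letters in this order. Cd74 was not among the genes with the arrangement in the search over all windows.

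The libraries held 224329 to 483593 counts each, and 5256 genes passed the filter on low counts. At this depth 3 counts correspond to 6.58 to 14.9 CPM (a gene's counts scaled to a common library size), the unit used below, taken over the genes that passed the filter and scaled by the trimmed mean of M-values (TMM). The values are 3' end counts, so no division by gene length was made, and levels are compared between libraries. In bulk samples, fewer cells that express a gene and less RNA per cell cannot be told apart. The labelled subsets matched their markers: Ly6c2 ran from 11.99 to 74.6 CPM in Ly6Clo libraries and from 372 to 547 CPM in Ly6Chi libraries. Itgam, a gene that macrophages use, is listed at 0 in all 8 libraries, so a 0 in these tables cannot be read as absence.

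Of the 10 genes, 6 passed the filter, and these were the class II chains, Cd74 and both H2-DM subunits. Together they held 0.0912% to 0.158% of the counts of a library. Their summed level averaged 1057 ± 58.8 CPM in Ly6Chi macrophages with IL-21 and 1178 ± 28.2 CPM in Ly6Chi macrophages without it (SD, n = 2 each). In Ly6Clo macrophages the sum averaged 1462 ± 165 CPM with IL-21 and 1480 ± 297 CPM without it (SD, n = 2 each). The other 4 genes, Ciita, Cd80, Cd86 and Cd40, were too low to be tested in the main fit and are described from their counts.

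**Figure D1:**
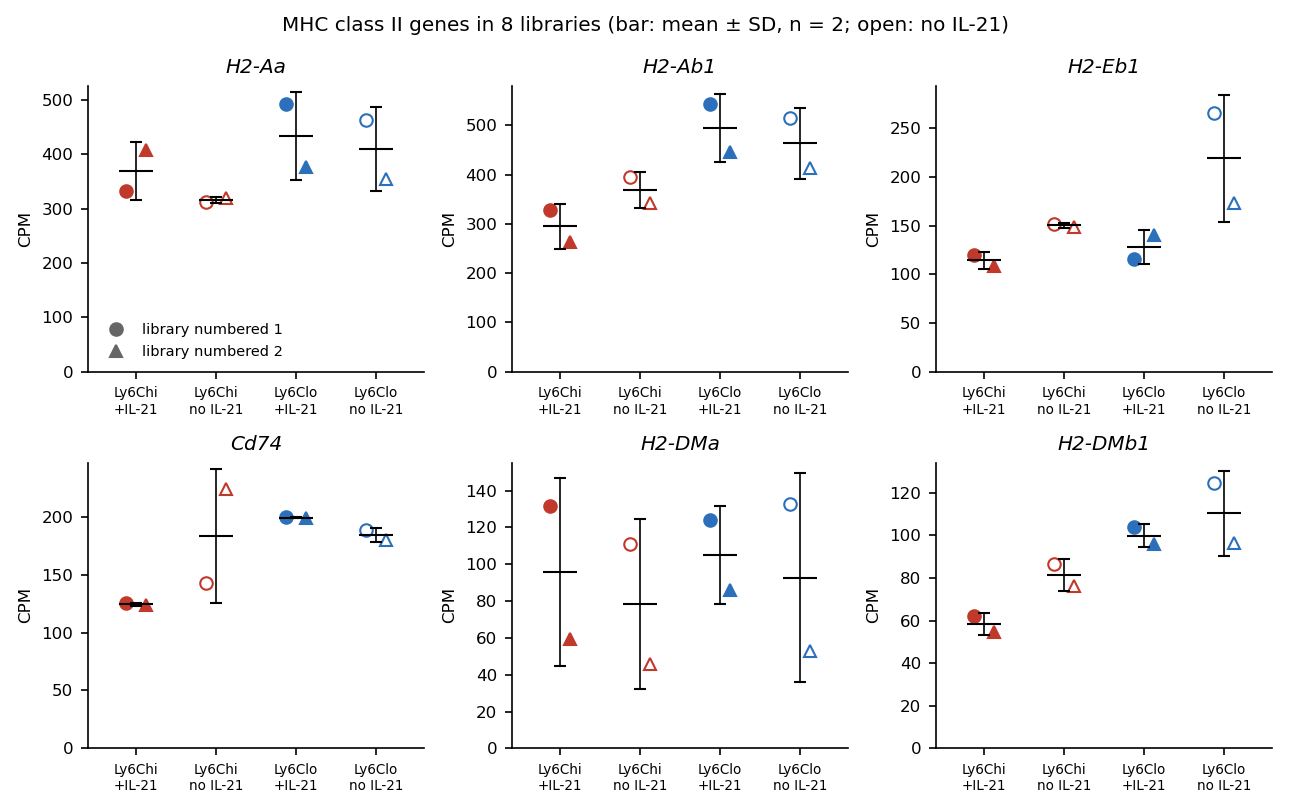
Level of the 6 class II genes that passed the filter, in CPM, in each of the 8 libraries, by subset and IL-21, with bars at the mean ± SD of each group of 2 (filled, with IL-21; open, without). Every H2-Eb1 value with IL-21 lies below every value without it, at 108 to 140 against 149 to 266 CPM, while the H2-Aa and Cd74 points overlap between the arms.

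H2-Aa and H2-Ab1 encode the alpha and beta chains of I-A, the class II molecule that C57BL/6 mice display. H2-Aa (chr17:34282744-34287823, minus strand, coordinates of GENCODE M21 on GRCm38) had 332 and 407 CPM in Ly6Chi macrophages with IL-21, against 312 and 320 CPM without it. In Ly6Clo macrophages it had 491 and 377 CPM with IL-21, against 464 and 355 CPM without it. The libraries with IL-21 were the higher ones among Ly6Chi macrophages, and the Ly6Clo arms overlapped.

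H2-Ab1 (chr17:34257689-34269419, plus strand) had 327 and 263 CPM in Ly6Chi macrophages with IL-21, against 394 and 343 CPM without it. In Ly6Clo macrophages H2-Ab1 had 544 and 446 CPM with IL-21, against 515 and 412 CPM without it. The Ly6Chi arms did not overlap, and the Ly6Clo arms did. Averaged over the subsets, the log2 fold change with IL-21 was 0.15 for H2-Aa (95% interval -0.21 to 0.52) and -0.11 for H2-Ab1 (-0.47 to 0.25). Intervals here and below are per gene and not adjusted over genes.

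H2-Eb1 (chr17:34305867-34316674, plus strand) encodes the beta chain of I-E, whose alpha chain gene is defective in C57BL/6 mice. The partner, H2-Ea-ps in the annotation, is listed at 0 in all 8 libraries. H2-Eb1 had 120 and 108 CPM in Ly6Chi macrophages with IL-21, against 152 and 149 CPM without it. It had 116 and 140 CPM in Ly6Clo macrophages with IL-21, against 266 and 173 CPM without it. The 4 libraries with IL-21 therefore all lay below the 4 without it, a separation in the lower direction that 1.43% of all tested genes showed.

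The averaged log2 fold change of H2-Eb1 was -0.56 (SE 0.21, 95% interval -0.997 to -0.118), a level 0.680 times that without IL-21. Its unadjusted p of 0.0165 became 0.783 after Benjamini-Hochberg adjustment over all genes (edgeR quasi-likelihood), so the gene did not pass. In Ly6Chi macrophages the value was -0.38 (SE 0.31) and in Ly6Clo macrophages -0.73 (SE 0.28). Within library number 2 the log2 difference was -0.42 in Ly6Chi and -0.29 in Ly6Clo macrophages, and within number 1 it was -0.32 and -1.15, so the size in Ly6Clo macrophages rested largely on the library without IL-21 at 266 CPM. The difference between these effects was -0.35 (95% interval -1.23 to 0.53, adjusted p 0.9998 by edgeR). Markers of conventional dendritic cells, which are rich in class II, summed to 39.5 to 87.9 CPM with IL-21 and 80.9 to 145 CPM without it, with 2 of the 11 markers, Clec9a and Cd209a, at 0 in all libraries. Of the 200 counts in these sums, Clec10a held 96.9 and Ccr7 held 47. The part of dendritic cells in the H2-Eb1 values was not tested.

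Cd74 (chr18:60803848-60812652, plus strand) had 125 and 124 CPM in Ly6Chi macrophages with IL-21, against 143 and 224 CPM without it. In Ly6Clo macrophages it had 200 CPM in both libraries with IL-21, against 189 and 180 CPM without it. The libraries with IL-21 were lower than those without it among Ly6Chi macrophages and higher among Ly6Clo macrophages. The log2 fold change was -0.57 (SE 0.29) in Ly6Chi and 0.11 (SE 0.26) in Ly6Clo macrophages. The difference of 0.68 (SE 0.39, 95% interval -0.14 to 1.51) did not pass (adjusted p 0.9998, edgeR). The Ly6Chi value was -0.22 without library 2 cultured without IL-21 and -0.85 without library 1 of that group, and the difference was 0.33 and 0.96.

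H2-DMa (chr17:34119541-34139101, plus strand) and H2-DMb1 (chr17:34153072-34160230, plus strand) encode the heterodimer that edits the peptides bound by class II. H2-DMb1 had 62.1 and 54.6 CPM in Ly6Chi macrophages with IL-21, against 86.6 and 76.3 CPM without it. Ly6Clo macrophages had 104 and 96.1 CPM with IL-21, against 125 and 96.3 CPM without it. The libraries with IL-21 were the lower ones among Ly6Chi macrophages, and the Ly6Clo arms overlapped. The averaged log2 fold change was -0.31 (95% interval -0.80 to 0.19). H2-DMb1 has a near-identical neighbour, H2-DMb2, that held 2 counts in all, so its share of reads is uncertain.

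H2-DMa had 132 and 59.6 CPM in Ly6Chi macrophages with IL-21, against 111 and 45.8 CPM without it. It had 124 and 86.2 CPM in Ly6Clo macrophages with IL-21, against 133 and 52.7 CPM without it. The 2 libraries of a group differed more than the arms did, and the averaged log2 fold change of 0.29 (95% interval -0.55 to 1.13) turned to -0.061 without Ly6Chi library 1 with IL-21 and to -0.0093 without Ly6Clo library 2 cultured without IL-21.

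In sum, no class II gene passed an adjusted p of 0.05 for IL-21 in edgeR. This held for 0 of 6 in Ly6Chi macrophages, where 0.019% of all genes passed, for 0 of 6 in Ly6Clo macrophages (0.133%), and for 0 of 6 in the average (0.171%). At an unadjusted p under 0.05 the counts were 0 of 6, 1 of 6 and 1 of 6, against 3.52%, 3.52% and 5.35% of all genes. DESeq2 and limma-voom also called 0 of 6 in each. Among Ly6Chi macrophages 2 of the 6 were higher and 4 lower (50.0% and 50.0% of all genes), with a median log2 fold change of -0.35 beside -0.00 over all genes. In Ly6Chi macrophages, where 2 libraries stand against 2, the arms did not overlap for 1 of 6 genes in the higher direction (15.8% of all genes) and 4 of 6 in the lower (15.6%). Among Ly6Clo macrophages 4 were higher and 2 lower (49.2% and 50.8% of all genes), with a median of 0.09 beside -0.01. The Ly6Clo arms did not overlap for 1 of 6 genes in each direction, and the share over all genes is not given here. The difference of the effects passed for 0 of 6 genes and for 0.0% of all genes.

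**Figure D2:**
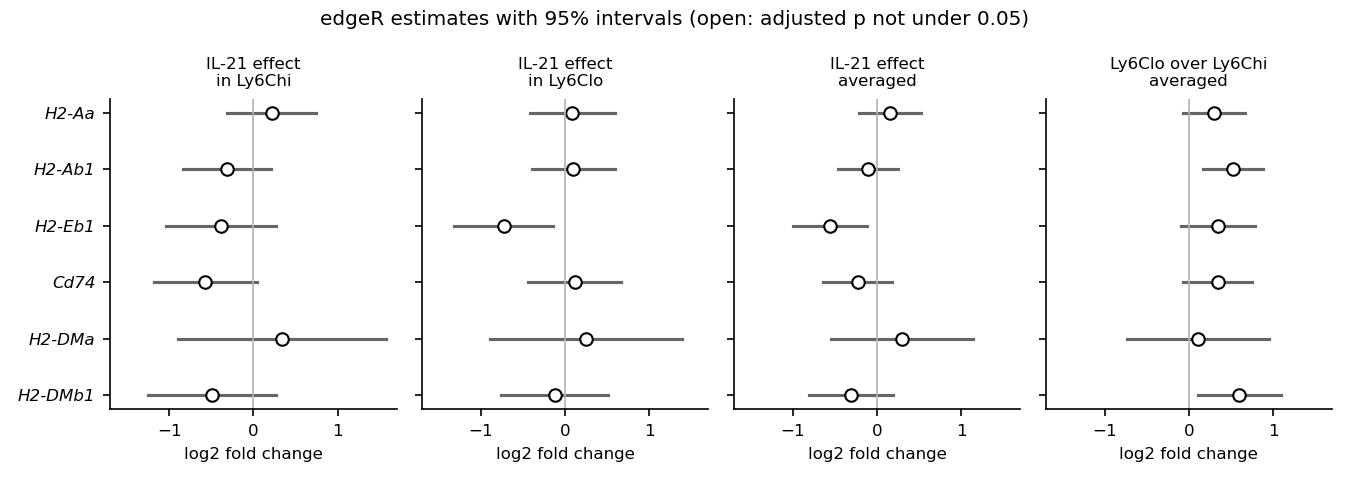
Log2 fold changes (horizontal axis) with 95% intervals of the 6 tested class II genes for the effect of IL-21 and for Ly6Clo against Ly6Chi, from edgeR. The averaged interval of H2-Eb1 for IL-21, -0.997 to -0.118, lies below 0, and those of H2-Ab1 and H2-DMb1 for Ly6Clo against Ly6Chi, 0.17 to 0.89 and 0.11 to 1.09, lie above 0. No gene passed the adjusted threshold.

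The fitted class II levels lay above those of Ly6Chi macrophages in Ly6Clo macrophages, but no gene passed the test on group means. Averaged over IL-21, the log2 fold change of Ly6Clo over Ly6Chi was above 0 for 6 of 6 genes, with a median of 0.34 beside 0.00 over all genes, 50.4% of which were above 0. H2-Ab1 ran from 412 to 544 CPM in Ly6Clo libraries and from 263 to 394 CPM in Ly6Chi libraries, with a log2 fold change of 0.53 (SE 0.17, adjusted p 0.384, edgeR). H2-DMb1 ran from 96.1 to 125 CPM in Ly6Clo libraries and from 54.6 to 86.6 CPM in Ly6Chi libraries, at 0.60 (SE 0.23, adjusted p 0.531, edgeR). For these 2 genes the libraries of the subsets did not overlap, as for 2.61% of all genes in this direction.

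The other 4 genes overlapped between the subsets, with log2 fold changes of 0.30 for H2-Aa, 0.34 for H2-Eb1, 0.34 for Cd74 and 0.11 for H2-DMa. Adjusted p under 0.05 was reached by 0 of 6 genes in edgeR, against 0.19% of all genes, and an unadjusted one by 2 of 6, against 7.78%. DESeq2 and limma-voom called 0 of 6. With IL-21 the value of Cd74 was 0.68 (SE 0.28), and without IL-21 it was -0.00 (SE 0.26). That of H2-Eb1 was 0.17 (SE 0.30) with IL-21 and 0.52 (SE 0.28) without it. The order of groups by mean H2-Ab1 was Ly6Clo with IL-21 (495 CPM), Ly6Clo without (464 CPM), Ly6Chi without (369 CPM) and Ly6Chi with IL-21 (295 CPM). Of these neighbours, only the Ly6Clo groups overlapped.

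The ratios of counts between class II genes differed between libraries, and these differences were not tested. H2-Aa had 1.01 and 1.55 counts per H2-Ab1 count in Ly6Chi macrophages with IL-21, against 0.792 and 0.933 without it. In Ly6Clo macrophages the ratio was 0.904 and 0.845 with IL-21, against 0.903 and 0.862 without it. The value of 1.55 has an exact 95% interval of 1.08 to 2.23, which covers counting error only, and it is the highest of the 8. H2-Eb1 had 0.213 and 0.315 counts per H2-Ab1 count in Ly6Clo macrophages with IL-21, against 0.516 and 0.420 without it. In Ly6Chi macrophages it had 0.368 and 0.415 with IL-21, against 0.385 and 0.433 without it. Cd74 per H2-Ab1 count was 0.379 and 0.472 in Ly6Chi macrophages with IL-21, against 0.365 and 0.656 without it. Among Ly6Clo macrophages it was 0.368 and 0.448 with IL-21, against 0.371 and 0.436 without it, so the arms were close there. The H2-DM subunits, which act as a pair, ranged from 0.545 to 1.09 H2-DMa counts per H2-DMb1 count in libraries numbered 2 and from 1.07 to 2.19 in those numbered 1.

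**Figure D3:**
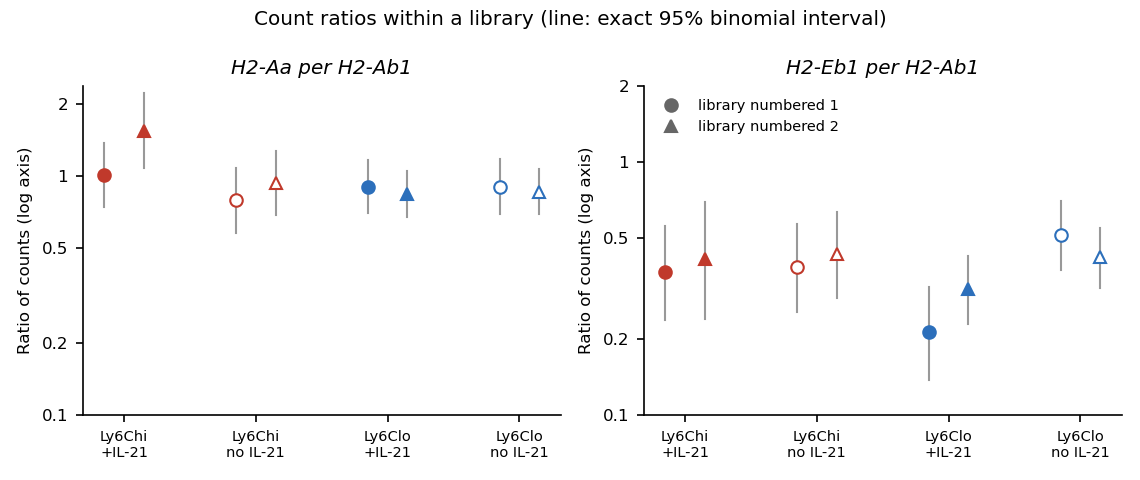
Counts of H2-Aa and of H2-Eb1 per H2-Ab1 count in each library on a log axis, with exact 95% intervals for counting error (filled, with IL-21; open, without). The ratio of H2-Aa is highest in a Ly6Chi library with IL-21 (1.55) and that of H2-Eb1 is lowest in a Ly6Clo library with IL-21 (0.213).

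Across the 8 libraries, which differ in subset, IL-21 and replicate number, H2-Ab1 and H2-DMb1 moved most alike (Pearson r 0.94, Spearman rho 0.95). Differences between the groups enter this and the following r values. H2-DMb1 had r 0.71 with H2-Eb1 and 0.70 with Cd74. Among the genes shown with X and Y words in their promoters, r was 0.14 for H2-Aa and H2-Eb1. It was 0.46 for H2-Aa and H2-DMb1 and 0.71 for H2-Eb1 and H2-DMb1. The part of the words in these values was not tested. Cd74 and H2-DMa had r -0.22. Among 2918 genes ranked by likeness to the mean profile of H2-Aa, H2-Ab1, H2-Eb1 and Cd74 over these 8 libraries, the highest were Gfm2 (r 0.97), Gm4332 (0.95), Ptpra (0.95), Clic4 (0.94) and Lat2 (0.92).

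Ciita (chr16:10480059-10528418, plus strand) had 2 counts in all, both in a Ly6Clo library with IL-21. A count of 0 over the pooled Ly6Chi libraries without IL-21 allows up to 7.29 CPM (exact 95% interval). Its change was not detectable at this depth.

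Cd86 (chr16:36603869-36666081, minus strand) had 9.41 and 27.3 CPM in Ly6Chi macrophages with IL-21, against 26.7 and 32.4 CPM without it. Ly6Clo macrophages had 7.99 and 17.2 CPM with IL-21, against 12.5 and 28.5 CPM without it. The arms overlapped, and an edgeR fit without the filter gave an averaged log2 fold change of -0.68 (SE 0.50).

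Cd40 (chr2:165055627-165072948, plus strand) had 15.05 and 9.93 CPM in Ly6Chi macrophages with IL-21, against 51.3 and 19.1 CPM without it. In Ly6Clo macrophages it had 24.0 and 27.1 CPM with IL-21, against 0 and 19.7 CPM without it. The 2 libraries with IL-21 were below both others in Ly6Chi and above both others in Ly6Clo macrophages. These are 0 to 12.5 counts per library. In the fit without the filter the log2 fold change was -1.38 (SE 0.73) in Ly6Chi and 1.04 (SE 0.67) in Ly6Clo macrophages, and the difference of 2.42 (SE 0.997, unadjusted p 0.0153) did not pass (adjusted p 0.9999, edgeR).

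Cd80 (chr16:38455561-38496335, plus strand) had 3.76 and 4.96 CPM in Ly6Chi macrophages with IL-21, against 12.2 and 11.4 CPM without it. In Ly6Clo macrophages it had 3.997 and 7.39 CPM with IL-21, against 4.15 and 0 CPM without it. Each library held 0 to 3 counts of Cd80, too few to compare.

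**Figure D4:**
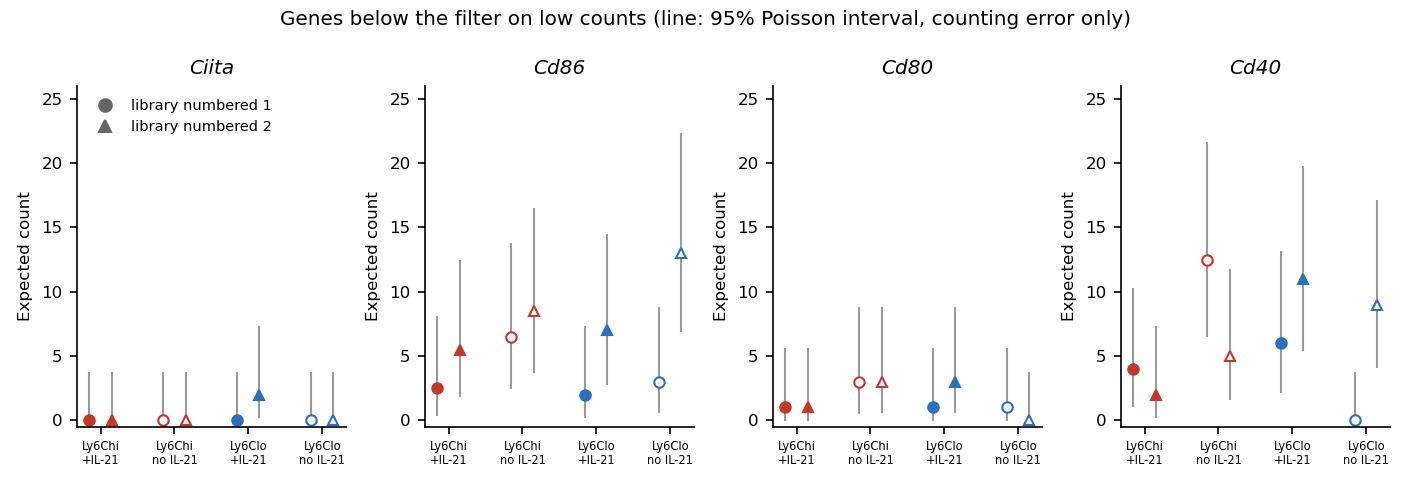
Expected counts of Ciita, Cd86, Cd80 and Cd40, the genes below the filter, in each of the 8 libraries (filled, with IL-21; open, without), with 95% Poisson intervals for counting error. Cd40 had 4 and 2 counts in Ly6Chi macrophages with IL-21 and 12.5 and 5 without it, and Ciita was counted in a single library.

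Between the replicate numbers, 1 of the 6 class II genes passed, H2-DMa. Libraries numbered 2 had 45.8 to 86.2 CPM of H2-DMa and libraries numbered 1 had 111 to 133 CPM, with no overlap. The log2 fold change of number 2 over number 1, fitted with the group means, was -1.02 (SE 0.23, adjusted p 0.00386, edgeR), in a comparison in which 3.6% of all genes were called lower and 8.18% called at all. The call was lost without either Ly6Clo library cultured without IL-21 (adjusted p 0.0780 without number 1 and 0.0725 without number 2) and in DESeq2 (0.0937). Brd2, which overlaps H2-DMa on the opposite strand, had a log2 fold change of 0.35 in the same comparison (adjusted p 0.0705, edgeR). The macrophage marker sum was 6806 to 7050 CPM in number 2 and 8038 to 11558 CPM in number 1. Lyz2 held 9401 of its 18860 counts. The plasmacytoid dendritic cell sum, mostly Bst2, was higher in number 2, at 4886 to 6099 against 3137 to 4392 CPM. So was the endothelial sum, mostly Kdr, at 188 to 338 against 56.0 to 138 CPM. Of the other plasmacytoid markers, Tcf4 held 500 counts, Ccr9 5.5 and Siglech 0. Of the other endothelial markers, Pecam1 held 3 counts, Cdh5 2 and Tie1 0. These sums are therefore not read as amounts of those cells. The part of these sums in the H2-DMa values was not tested. The other 5 class II genes did not pass. Of these, H2-Ab1 was lower in number 2 in all 4 groups, by log2 differences of -0.31 to -0.20, and so was H2-DMb1, by -0.35 to -0.11. The shares of all genes lower in all 4 groups, or without overlap between the numbers, are not given here. Neither pattern is therefore read as particular to class II genes.

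**Figure D5:**
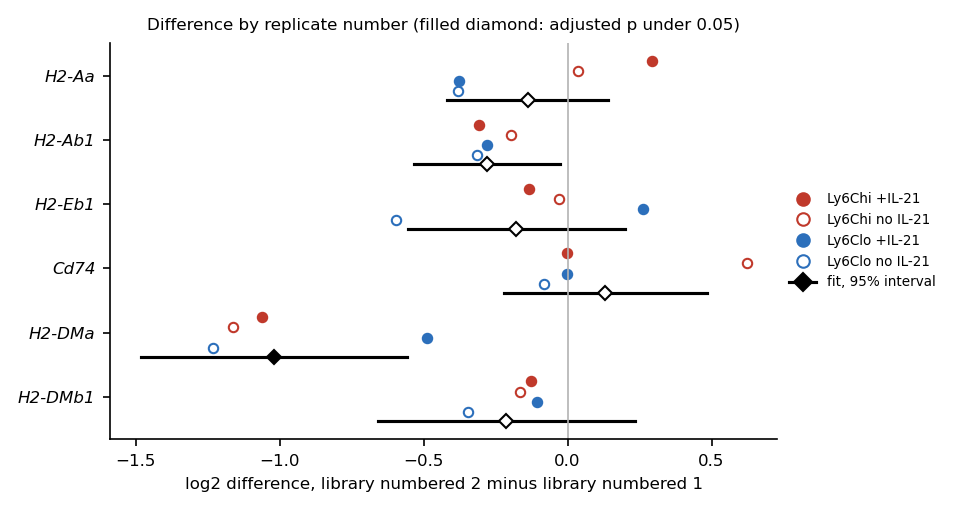
Log2 difference of library 2 minus library 1 (horizontal axis) in each of the 4 groups for the 6 tested class II genes, with the edgeR estimate and its 95% interval as a diamond and line. H2-DMa, H2-Ab1 and H2-DMb1 are below 0 in all 4 groups, and the fitted value of H2-DMa, -1.02, is the filled diamond, the one that passed the adjusted threshold.

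The wider pathway showed few calls. Of the other class II genes, H2-DMb2 and H2-Eb2 had 2 counts each and H2-Oa and H2-Ob had 0, so none could be tested. Of 19 regulators of class II transcription, 12 could be tested, of which 7 were higher and 5 lower with IL-21 on average and 0 passed, with a median log2 fold change of 0.07 beside -0.01 over all genes. Of these 12, 2 were higher and 10 lower in Ly6Clo than in Ly6Chi macrophages, with a median of -0.27 beside 0.00, and 0 passed. Of 16 tested genes of class II processing and trafficking, 9 were higher and 7 lower with IL-21, and 0 passed. The smallest p among them was that of Ap1b1, a subunit of the AP-1 clathrin adaptor, with an averaged log2 fold change of 1.13 (SE 0.29, adjusted p 0.245, edgeR).

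March1, a ubiquitin ligase that lowers surface class II and CD86, had 166 and 204 CPM in Ly6Chi macrophages with IL-21, against 106 and 96.0 CPM without it. The values in Ly6Clo macrophages were 95.9 and 178 CPM with IL-21, against 71.6 and 84.5 CPM without it. All of the libraries with IL-21 were higher within their subset, a separation that 15.8% of all genes showed in Ly6Chi macrophages. The share in Ly6Clo macrophages is not given here. The averaged log2 fold change of March1 was 0.85 (SE 0.24, adjusted p 0.339, edgeR). Ctsl, a cathepsin that degrades the invariant chain in thymic epithelium, had 0.62 (SE 0.15, adjusted p 0.194, edgeR) for Ly6Clo over Ly6Chi. A list of 22 other costimulatory and coinhibitory genes held ligands, the receptor gene Tnfrsf14 and Traf signalling adaptors. Only 6 of them, Traf3 included, could be tested, and 0 passed for IL-21 or subset. Between the replicate numbers, 3 of these 6 passed. Slamf7 and Cd274, the gene of the coinhibitory ligand PD-L1, were higher in number 2 than in number 1, with log2 fold changes of 1.03 (SE 0.14) and 0.90 (SE 0.13) and adjusted p of 8.41e-06 and 3.40e-05 (edgeR), beside 4.59% of all genes called higher. Vsir, which encodes the coinhibitory ligand VISTA, was lower in number 2, at -0.64 (SE 0.18, adjusted p 0.0255, edgeR). Of the regulators, Irf1, an interferon-induced activator of the Ciita gene, was the 1 of 12 that passed, higher in number 2 at 0.59 (SE 0.17, adjusted p 0.0281, edgeR). Of the processing genes, Cd9, a tetraspanin, was the 1 of 16 that passed, lower in number 2 at -0.53 (SE 0.14, adjusted p 0.0165, edgeR). Over all genes 8.18% were called between the numbers, so 1 of 12 and 1 of 16 lay near that share.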

How the data were processed

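Per the labels' protocols, libraries were made with a QuantSeq 3' mRNA-Seq FWD kit and a UMI module and sequenced in 75-base single-end mode. The authors deposited an expected count per gene, in part fractional, with no further normalization apparent in the values. The submitters' processing notes name genome build mm10 and DESeq2 without roles, and the aligner, counter, strand setting and use of UMIs are not stated in the material used. Counts were rounded, filtered with filterByExpr (minimum 10, total 15) and scaled by TMM. They were tested with edgeR 4.0.16 (quasi-likelihood, robust) on 4 group means, with Benjamini-Hochberg adjustment over 5256 genes at 0.05. Comparisons of replicate number added the number as a term. DESeq2 1.42.0 and limma 3.58.1 voom, other filters and scalings, subsets alone, the replicate block and leaving out each library were alternatives, and edgeR was tested on simulated data. Gene names matched 53237 of 53342 identifiers. The genes and lists were chosen with earlier results of these data known. All 10 genes are named, and of each pathway list some of those with the smallest p in a comparison, each gene called in the edgeR fits above included. Intervals on counts cover counting error only.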

Additional observations from a re-analysis of the deposited data

How the results depend on the processing

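The labels give the groups the same replicate numbers without saying that a number marks a shared animal or batch, and there are 2 numbers. Same-numbered libraries deviated together (r 0.234 to 0.412 between groups over 5256 genes), but with 2 numbers this does not establish pairs, and the numbers were taken as shared labels only. With the replicate number as a block, 1 of 6 class II genes was called in Ly6Clo against Ly6Chi with IL-21 and 1 of 6 in the average: H2-Ab1, at 0.74 (adjusted p 0.0414) and 0.53 (adjusted p 0.0146), beside 0.78% and 2.51% of all genes. Of the pathway lists, the block called Ap1b1 (adjusted p 0.0398), March1 (0.0183) and Cd9 (0.0178, lower) for IL-21 on average. For Ly6Clo against Ly6Chi on average it called Ctsl (0.00042), Ctsd (0.0169), Cd9 (0.0143) and Cd274 (0.0275, lower), and Ctsl also with IL-21 (0.0367) and without it (0.0332). The block raised the calls over all genes to 14, 29 and 60 for IL-21 in Ly6Chi, in Ly6Clo and on average, and to 31, 41 and 132 for the subset comparison in cultures lacking IL-21, in those with it and on average. The main counts were 1, 7, 9, 2, 1 and 10, and without a filter on low counts they were 8, 15, 35, 17, 22 and 58. For IL-21 in Ly6Clo, limma-voom called 1 gene, a mean count of at least 20 left 2, unrounded counts 3 and the Ly6Clo libraries alone 0. Limma-voom called 5 for IL-21 and 4 for subset on average. For the replicate number the main count of 430 became 131 in DESeq2 and 128 in the Ly6Chi libraries alone, and 175 to 430 with a library left out, the lowest being without Ly6Clo library 1 cultured without IL-21. Leaving out a library gave 0 to 3, 0 to 7 and 6 to 12 calls for IL-21 in Ly6Chi, in Ly6Clo and on average, and 3 to 21 for subset on average.

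No class II gene was called for IL-21 or subset under the other alternatives run. H2-DMa between the replicate numbers was called in 6 of 8 fits that left out a library, so that 0 to 1 of 6 genes were called, with values of -1.26 to -0.90. DESeq2 called 0 of 6 (-1.06) and the Ly6Chi libraries alone 0 of 6 (-1.22). Of 750 recomputed fold changes 45 turned sign, none of them called, and the cause was not tested. Cd74 in Ly6Clo against Ly6Chi without IL-21, -0.00 in the report, was 0.0013 with RLE factors, 0.0050 in DESeq2, 0.027 in limma-voom, 0.0085 without a filter, 0.022 with a mean count of at least 20, 0.0010 unrounded and 0.011 in the libraries without IL-21 alone. The difference of the IL-21 effects on H2-DMa was 0.014 in limma-voom. Between numbers, Cd74 was -0.041 in the Ly6Clo libraries alone and H2-Aa 0.16 in the Ly6Chi libraries alone.

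Leaving out each library gave, for H2-DMa, -0.37 to 1.10 for IL-21 in Ly6Chi, -0.36 to 0.96 in Ly6Clo, -0.061 to 0.67 on average and -0.86 to 0.63 for the difference. For Ly6Clo against Ly6Chi it gave -0.36 to 0.78 with IL-21, -0.56 to 0.92 without and -0.25 to 0.50 on average. For IL-21 in Ly6Clo, H2-Aa ranged from -0.11 to 0.28, H2-Ab1 from -0.058 to 0.26 and H2-DMb1 from -0.32 to 0.046. The difference for H2-Aa ranged from -0.32 to 0.069, Cd74 in Ly6Clo against Ly6Chi without IL-21 from -0.28 to 0.36, and between numbers Cd74 from -0.033 to 0.22 and H2-Eb1 from -0.33 to 0.049. CPM over all deposited counts averaged 0.925 times the values given, and 8 of 40 group means moved by more than 1 SD. Depth limits Ciita, Cd80, Cd86 and Cd40.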
